A study of Mus musculus with 18 samples.

Results

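Binding of the clock factor BMAL1 was measured in mouse liver, kidney and heart by ChIP-seq (sequencing of DNA precipitated with the factor), and 1442 of the 4034 kidney peaks lay in regions that were neither shared with the other organs nor at the ends of genes. A kidney peak was counted among these kidney-only peaks away from gene ends when it did not overlap any liver or heart peak by 1 bp or more and when its centre was more than 1 kb from every end of an annotated gene of any biotype (RefSeq, GRCm38). The 1442 peaks were 35.7% of the kidney list and part of 11366 peaks in the 3 lists together. The peaks were thus selected on the measured positions in the 3 lists and on the gene table, so the absence of an overlapping liver or heart peak and the distance above 1 kb are the definition of these peaks and not results. Of the 4034 kidney peaks, 57.7% had no overlapping liver or heart peak and 55.1% lay away from gene ends.

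All groups came from wild type C57BL/6 mice aged 3 to 6 months, kept with 12 h light and 12 h dark per day and fed without restriction. Liver, kidney and heart of the same animals (3 mice per tissue) were taken 6 h after lights on and fixed in 1% formaldehyde. Sonicated chromatin from purified nuclei was pulled down by an antibody raised in chicken against the N-terminal domain of mouse BMAL1. The 18 libraries were 3 ChIP and 3 input libraries per tissue, and each tissue had 1 peak list that the authors had made from all of them together. The lists therefore carry no spread between animals, read depth is unknown, and a more sensitive list can hold more weak peaks. A kidney-only peak is a peak absent from the other lists, which does not show that BMAL1 did not bind there in liver or heart. For the heart inputs, 1 label (the source) reads kidney while the title and tissue read heart; the part of this in the heart list was not tested. No test between tissues was possible with 1 list per tissue. Shares carry 95% intervals by the exact Clopper-Pearson method; they take in counting error alone and treat neighbouring peaks as separate.

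BMAL1 is the partner of CLOCK in the activating complex of the circadian clock. The pair binds E-boxes, most strongly the palindrome CACGTG, and drives the genes of its own repressors (the Period and Cryptochrome genes, Nr1d1) as well as output genes that differ from organ to organ. In the kidney the clock is known for daily rhythms in sodium, potassium, water and acid handling along the nephron, and sites far from gene ends are where enhancers that give a tissue its identity usually lie.

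The bases under a peak could be read only where it touched a window from 250 bp before to 50 bp after an annotated transcript start. Starts inside a gene, from which shorter transcripts begin, are not gene ends, so peaks away from gene ends can still lie on them. On the chromosomes covered by these windows, 67 of 1404 kidney-only peaks away from gene ends (4.77%) touched one. The share was 8.79% for shared kidney peaks, 2.04% for liver-only and 2.75% for heart-only peaks away from gene ends. Of kidney peaks in all, 28.8% touched one, but these include peaks at gene ends, which the definition removes. That difference is therefore not a result. Of the 67 peaks, 60 touched the start of a protein-coding gene's transcript. Within these 67, 10 of the 29 peaks that lay wholly inside a window held CACGTG (34.5%, 17.9 to 54.3), against 4.93% of the central 188 bp of all windows. The following sequences show where the E-box (in capitals) lay in such peaks. They are given 5′ to 3′ on the strand of the transcript (RefSeq, GRCm38.p6), up to the base before the start where a peak ran past it.

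The first set holds peaks that lay wholly before the start. Abcc4 encodes an exporter of organic anions (chr14:118706259-118706446, minus strand, score 33). Cln3 encodes a lysosomal membrane protein and its peak held 2 E-boxes 28 bp apart (chr7:126583242-126583429, minus strand, score 34). Slc29a1 encodes a nucleoside carrier (chr17:45595250-45595437, minus strand, score 23), and Dnajc1 a chaperone of the endoplasmic reticulum (chr2:18392846-18393033, minus strand, score 39). Crocc encodes rootletin of the ciliary rootlet (chr4:141053700-141053887, minus strand, score 64), and Parp11 a mono-ADP-ribosyltransferase (chr6:127453425-127453612, plus strand, score 18).
Abcc4: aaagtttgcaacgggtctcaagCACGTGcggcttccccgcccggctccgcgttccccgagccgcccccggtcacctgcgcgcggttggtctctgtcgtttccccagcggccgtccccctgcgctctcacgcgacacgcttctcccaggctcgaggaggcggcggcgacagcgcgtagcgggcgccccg
Cln3: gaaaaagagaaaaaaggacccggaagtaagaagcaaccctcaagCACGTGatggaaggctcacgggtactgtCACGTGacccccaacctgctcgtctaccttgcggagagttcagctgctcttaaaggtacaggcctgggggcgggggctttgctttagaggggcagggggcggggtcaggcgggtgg
Slc29a1: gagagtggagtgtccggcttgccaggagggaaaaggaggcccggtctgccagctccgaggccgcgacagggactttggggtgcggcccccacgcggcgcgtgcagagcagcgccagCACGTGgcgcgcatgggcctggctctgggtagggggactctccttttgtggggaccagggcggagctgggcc
Dnajc1: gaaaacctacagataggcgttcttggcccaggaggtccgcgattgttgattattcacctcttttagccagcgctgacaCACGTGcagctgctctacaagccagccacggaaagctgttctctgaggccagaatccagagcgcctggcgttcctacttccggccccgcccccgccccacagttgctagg
Crocc: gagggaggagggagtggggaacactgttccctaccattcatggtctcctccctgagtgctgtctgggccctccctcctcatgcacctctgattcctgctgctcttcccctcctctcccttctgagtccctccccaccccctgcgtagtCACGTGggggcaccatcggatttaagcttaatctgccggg
Parp11: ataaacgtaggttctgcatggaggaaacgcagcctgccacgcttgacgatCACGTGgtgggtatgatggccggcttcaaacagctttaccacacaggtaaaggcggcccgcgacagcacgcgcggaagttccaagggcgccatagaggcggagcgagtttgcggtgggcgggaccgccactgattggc
In Dnajc1 the E-box lay 13 bp from the peak centre and in Slc29a1 25 bp, whereas in Abcc4 it lay 69 bp from it, towards the edge of the peak. The E-boxes of Crocc (57 bp) and Parp11 (41 bp) fell between these.

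The second set ran past the start and was cut at it. Rragb, a GTPase of the lysosomal amino acid sensing machinery, held 3 E-boxes in its whole peak (chrX:153139796-153139983, plus strand, score 17), of which the 162 bases before the start show 2. The predicted non-coding gene Gm40008 held 6 E-boxes at a constant spacing of 19 bp (chr2:172294612-172294799, minus strand, score 27), of which the 149 bases before the start show 5 in a tandem repeat.
Rragb: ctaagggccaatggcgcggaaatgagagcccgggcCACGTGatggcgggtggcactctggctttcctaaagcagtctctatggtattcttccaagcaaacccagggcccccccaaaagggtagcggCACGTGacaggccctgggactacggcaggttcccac
Gm40008: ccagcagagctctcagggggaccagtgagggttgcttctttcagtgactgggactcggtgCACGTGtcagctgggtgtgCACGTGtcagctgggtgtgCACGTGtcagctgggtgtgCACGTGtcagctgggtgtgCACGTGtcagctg
The repeat at Gm40008 placed one E-box 7 bp from the peak centre and the others at steps of 19 bp to both sides.

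The third set shows peaks without CACGTG at genes of the kidney tubule. Pax2 encodes a transcription factor needed for nephron formation (chr19:44756745-44756932, plus strand, score 18, 161 bases before the start). Ggt1 encodes the gamma-glutamyltransferase of the proximal tubule brush border (chr10:75573271-75573458, plus strand, score 17). Slc22a4 encodes an organic cation and ergothioneine carrier (chr11:54028138-54028325, minus strand, score 44).
Pax2: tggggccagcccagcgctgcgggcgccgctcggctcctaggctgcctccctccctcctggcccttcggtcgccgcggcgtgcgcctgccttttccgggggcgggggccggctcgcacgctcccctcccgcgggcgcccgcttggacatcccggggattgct
Ggt1: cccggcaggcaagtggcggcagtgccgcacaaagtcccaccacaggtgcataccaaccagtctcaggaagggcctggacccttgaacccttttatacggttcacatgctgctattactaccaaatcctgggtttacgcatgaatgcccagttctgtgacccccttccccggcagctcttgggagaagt
Slc22a4: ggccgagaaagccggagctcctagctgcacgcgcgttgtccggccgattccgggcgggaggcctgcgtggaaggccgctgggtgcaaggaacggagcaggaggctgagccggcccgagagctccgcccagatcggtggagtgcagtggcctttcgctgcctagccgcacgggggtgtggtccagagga
The start window of Slc22a4 did hold CACGTG, but 98 bp from the peak centre and so just outside the peak. In the windows of Pax2 and Ggt1 no CACGTG was found.

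Counting the whole start windows, 18 of the 67 windows touched by kidney-only peaks away from gene ends held CACGTG (26.9%, 16.8 to 39.1), against 7.15% of all 32851 windows. The share was 25.2% (21.3 to 29.3) for kidney-only peaks at gene ends and 43.3% (31.2 to 56.0) for shared kidney peaks away from gene ends. Shared kidney peaks at gene ends had 47.6% (43.3 to 52.0). Kidney-only peaks were thus lower than shared ones in both positions; the intervals overlapped away from gene ends, with 67 windows in each class, and lay apart at gene ends. Liver-only peaks away from gene ends reached 20.4% (10 of 49) and heart-only peaks 16.7% (5 of 30), with wide intervals. The median score was 25 for the 18 peaks with CACGTG in the window and 22 for the 49 without. In 15 of the 18 an E-box lay inside the peak, 2 to 69 bp from the centre (median 25 bp). Over all 18 the nearest E-box was within 25 bp of the centre in 8, or 44.4%. For shared kidney peaks away from gene ends the nearest box was within 25 bp in 18 of 29 (62.1%).

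**Figure D1:**
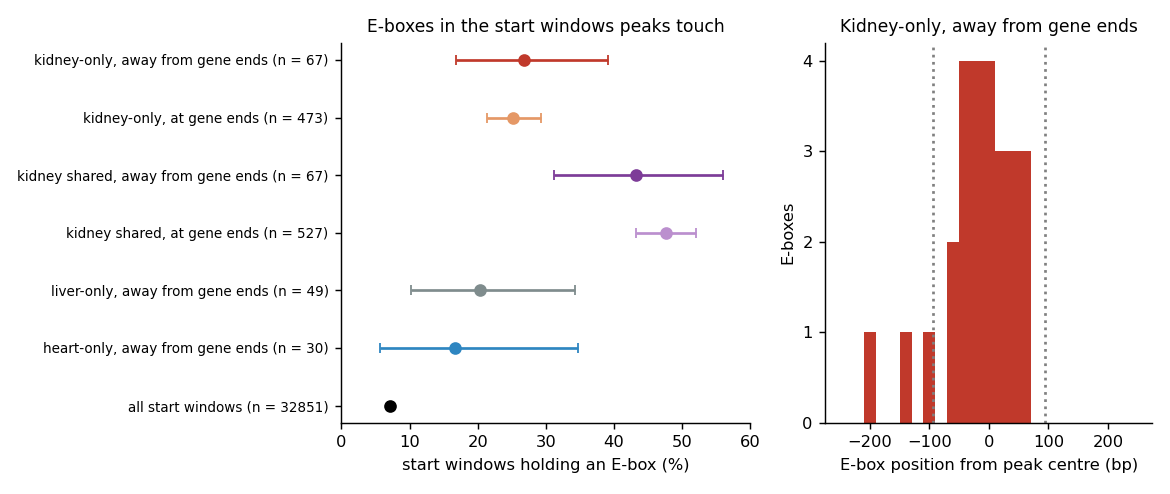
Left, share of start windows holding CACGTG (%, x axis) for each class of peaks that touched a window, with exact 95% intervals, and for all 32851 windows (black point, 7.15%); n is the number of windows. Right, position of each E-box relative to the centre of the kidney-only peak (bp, bars of 20 bp; negative is upstream on the transcript), with dotted lines at the peak edges. The kidney-only point (26.9%) lies above all windows and below shared kidney peaks, and most E-boxes fall between the dotted lines.

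Except for a near-consensus form of the E-box, other motifs were rare in these windows. That form, CACGTT or AACGTG (the same motif read on either strand), was present in 8 of 67 windows (11.9%, 5.30 to 22.2). It was in 4.68% of all windows and in 10.1% of those touched by kidney peaks in all. Among peaks wholly inside a window it was present in 1 of 29 (3.45%), against 2.82% of the central stretches of all windows. The forkhead motif TGTTTAC was found in 3 (4.48%, against 3.65% of all windows) and the AP-1 motif TGANTCA in 2 (2.99%, against 7.81%). The D-box forms TTATGTAA (0.94% of all windows) and TTATGCAA (0.74%) were found in none of the 67. The ERR motif TCAAGGTCA, the grainyhead motif AACCGGTT and the DR1, steroid receptor, CTCF and tandem E-box motifs were likewise found in none, and each was present in under 1% of all windows. The tandem E-box is CACGTG followed after 6 or 7 bases by a second box, a closer spacing than in the repeat at Gm40008. No match says only that these letters are not in the window.

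Within the kidney list these peaks carried low scores. The score is a whole number that the authors deposited with each peak; its scale is not given, so it was used only to rank peaks of 1 list. The median score was 21 (quartiles 17 to 29, range 14 to 117) against 28 for the whole kidney list. Kidney-only peaks at gene ends had a median of 24, shared kidney peaks away from gene ends 36 and shared peaks at gene ends 50. Only 14 of the 1442 (0.97%) ranked in the upper 10% of the list, and 420 (29.1%) in the upper 50%. Median scores were lower farther from gene ends: the median was 23 for the 508 peaks at 1 to 5 kb from a gene end, 21 for 574 at 5 to 20 kb, 20 for 243 at 20 to 50 kb and 19 for the 117 beyond 50 kb. Peaks inside genes had a median of 22 and those outside 21.

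**Figure D2:**
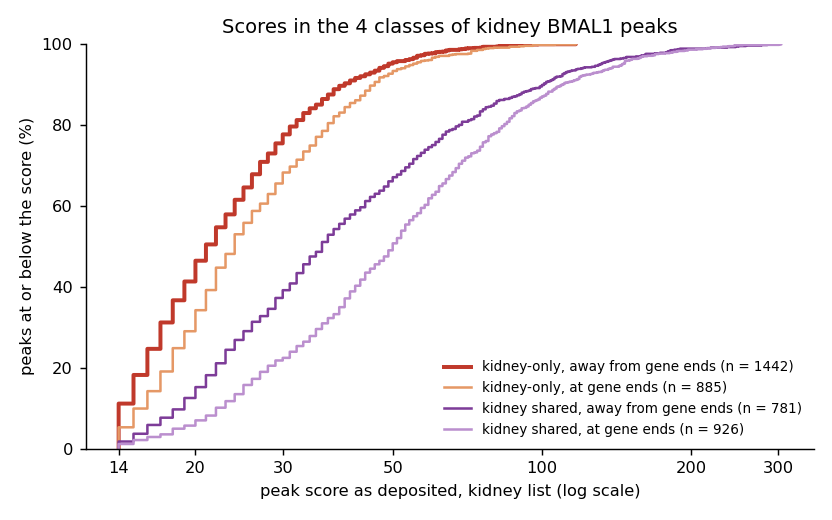
Cumulative share (%, y axis) of kidney peaks at or below each deposited score (x axis, log scale, no unit) in the 4 classes made by sharing with liver or heart and by distance from gene ends. The curve of the 1442 kidney-only peaks away from gene ends lies farthest to the left (median 21) and that of the shared peaks at gene ends farthest to the right (median 50).

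The strongest peaks of the class belonged to genes of diverse roles. The highest, with a score of 117 and rank 132 of the list, lay inside Hmcn2, which encodes the extracellular matrix protein hemicentin 2 (chr2:31434692-31434879). It was followed by a peak 5.55 kb outside the zinc finger gene Zfp775 (98, chr6:48627006-48627193) and by peaks inside Kazn, whose product kazrin binds cell junction proteins (92, chr4:142193109-142193296), and Tpcn2, a lysosomal cation channel (90, chr7:145231796-145231983). A peak scoring 87 lay 22.3 kb from Slc25a36, a mitochondrial carrier of pyrimidine nucleotides (chr9:97133206-97133393). These 5 peaks had no overlapping liver or heart peak by definition, and the nearest in either list was 23.9 kb away at Hmcn2, 33.2 kb at Zfp775, 66.0 kb at Kazn, 223 kb at Tpcn2 and 309 kb at Slc25a36.

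The next peaks were of the following genes. Alpl, the tissue-nonspecific alkaline phosphatase, held a peak scoring 84 (chr4:137747142-137747329). Agxt2, a mitochondrial aminotransferase that breaks down dimethylarginines and is known for its expression in kidney, held one scoring 81 (chr15:10399859-10400046), with the nearest other kidney peak 315 kb away. Nt5c2, a cytosolic nucleotidase, and Stk10, a serine/threonine kinase, each held a peak scoring 82. Mex3b, an RNA-binding protein gene, had one scoring 83. Wwtr1, which encodes the Hippo pathway coactivator TAZ, held a peak scoring 70 (chr3:57555626-57555813), and the mechanosensitive channel gene Piezo1 one scoring 75 (chr8:122515695-122515882). Lrrc58, Tbc1d1 (a Rab GTPase-activating protein) and Unc119b (a carrier of lipidated ciliary proteins) each held a peak scoring 76. Adap1 (73), the tetraspanin gene Cd63 (71) and the myosin gene Myo1c (68) were also among the 20 highest, each with its peak inside the gene. The remaining 2 of the 20 were a peak inside Thra (70), 2.96 kb from a heart peak, and a peak outside Foxo3. At Foxo3, a forkhead factor of stress and insulin signalling, the peak (69, chr10:42277648-42277835) lay 447 bp from a shared kidney peak scoring 148.

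By position, 1069 of the 1442 peaks lay inside a gene of any kind (74.1%, 71.8 to 76.4) and 980 inside a protein-coding gene (68.0%, 65.5 to 70.4). Shared kidney peaks away from gene ends were inside a gene in 73.8% (70.5 to 76.8) and heart-only peaks in 74.4% (71.7 to 76.9). Liver-only peaks away from gene ends were lower at 68.4% (66.5 to 70.2), with an interval that did not meet that of the kidney-only peaks. The gene table gives no exons, so intron and exon were not told apart. The median distance to the nearest gene end was 8.51 kb (quartiles 3.44 to 19.9 kb, highest 256 kb), between shared kidney peaks (6.71 kb) and heart-only peaks (10.2 kb); liver-only peaks had 9.03 kb.

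**Figure D3:**
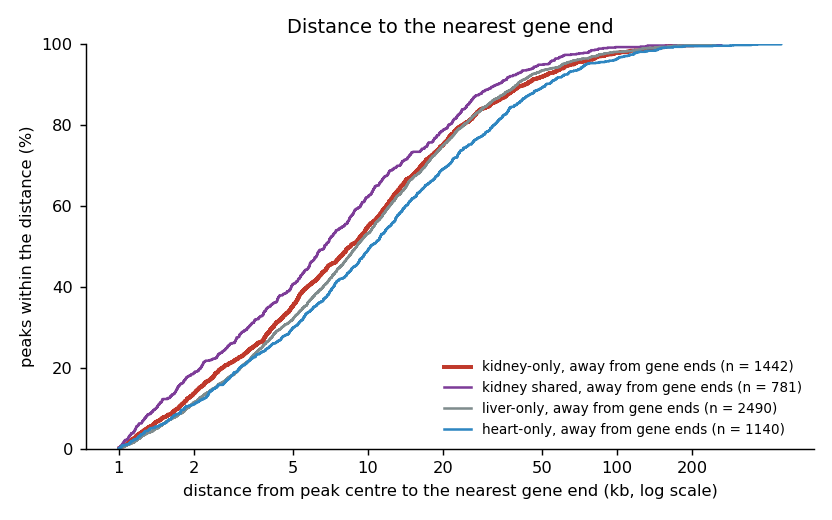
Cumulative share (%, y axis) of peaks whose centre lies within a distance of the nearest gene end (kb, x axis, log scale), for the 4 classes of peaks away from gene ends. All curves start at 1 kb by definition; the kidney-only curve (median 8.51 kb) runs close to the liver-only curve (9.03 kb), right of the shared kidney peaks (6.71 kb).

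The limits of the definition fell within a continuous range. Just above 1 kb were the peaks nearest to Elp6 (1004.5 bp from a gene end, score 18), Gm52310 (1007.5 bp, 24), Cdk1 (1017.5 bp, 20), Ltbp4 (1018.5 bp, 21) and Itpr1 (1022.5 bp, 21). The nearest gene end need not be that of the named gene, which is the nearest protein-coding one and can be far away. Just below it were the peaks nearest to Zfp503 (995.5 bp, 29), Dcdc2a (991.5 bp, 16), Id2 (989.5 bp, 20) and Oxnad1 (977.5 bp, 17), and a peak on chromosome 1 outside protein-coding genes (chr1:73513901-73514088, 977.5 bp, 48). On the overlap rule, the peak at Ece1 (score 23) touched a liver peak with a gap of 0 bp and that at Tmcc3 (17) came within 10 bp of a heart peak. The peak at Oaf (15), 18 bp of which overlapped, counted as shared.

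Inside protein-coding genes the peaks leaned towards the start. Of the 980 peaks, 776 had a host gene whose strand was known, and these genes were cut into 4 equal parts from start to end. The first part held 33.9% of the peaks (30.6 to 37.3), the second 25%, the third 23.7% and the last 17.4% (14.8 to 20.3). An even spread over the whole gene would give 25% in each. The definition removes centres within 1 kb of a gene end, and so positions in the first and last parts of each host. The 25% does not allow for that. Shared kidney peaks away from gene ends leaned the same way (35.8% in the first, 12.7% in the last). Liver-only (27.8%, 25.2 to 30.4) and heart-only peaks (28.1%, 24.5 to 31.8) had lower shares in the first part; the liver-only interval did not meet the kidney-only one and the heart-only interval did. Peaks within 10 kb of the host's start were 31.7% of the kidney-only, 40.4% of the shared, 25.3% of the liver-only and 22.4% of the heart-only peaks. The median length of the host genes was 81.1 kb for kidney-only, 54.4 kb for shared, 80.7 kb for liver-only and 99.4 kb for heart-only peaks, and its part in these shares was not tested.

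**Figure D4:**
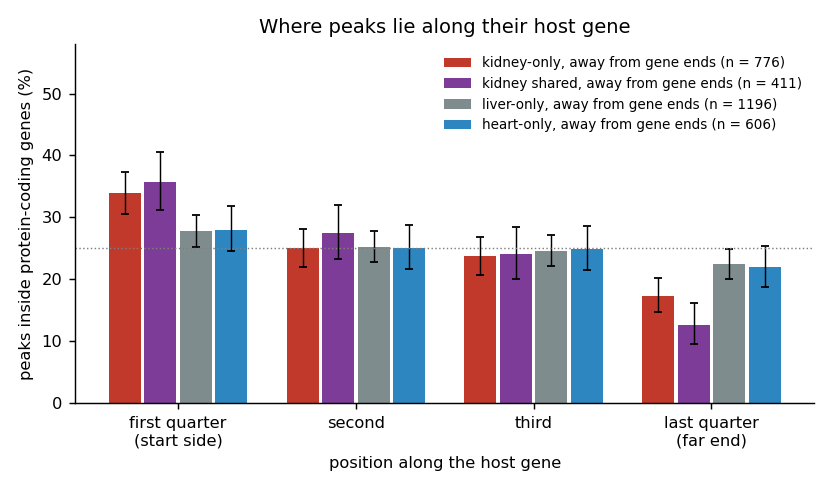
Share of peaks (%, y axis) in each of 4 equal parts of their protein-coding host gene, counted from the start (x axis), with exact 95% intervals. The dotted line marks an even 25% over the whole gene, without allowing for the positions within 1 kb of gene ends that the definition removes. Kidney-only (red, 33.9%) and shared kidney peaks (purple, 35.8%) stand above 25% in the first part and below it in the last.

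Although none overlapped a liver or heart peak, many had one nearby. A liver or heart peak centre lay within 1 kb of 43 peaks (2.98%), within 10 kb of 263 (18.2%, 16.3 to 20.3) and within 50 kb of 701 (48.6%). The share within 10 kb was 13.9% (12.6 to 15.4) for liver-only and 9.21% for heart-only peaks away from gene ends, each measured against the other pair of lists. These shares depend on the lengths of the lists searched. The nearest peak was from liver for 929 of the 1442 (64.4%); the liver list holds 4813 peaks and the heart list 2519.

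A kidney peak shared with another tissue lay within 10 kb of 121 kidney-only peaks (8.39%, 7.01 to 9.94), and in 97 of these pairs the shared peak scored higher (medians 41 and 23). Within 1 kb there were 15 such pairs. Besides Foxo3 they included Elovl1, an elongase of very long chain fatty acids (61, against 31 for the shared peak 465 bp away), and Alas1, the first enzyme of haem synthesis (36, against 32 at 732 bp). In these latter cases the kidney-only peak scored higher than the shared one. At Ccnd1 (24 against 36, 812 bp) and at Dgat2, an enzyme of triglyceride synthesis (14 against 23, 544 bp), the shared peak scored higher.

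Kidney-only peaks away from gene ends were spaced from other kidney peaks much as the whole kidney list was. Another kidney peak of any class lay within 50 kb of 633 (43.9%, 41.3 to 46.5), against 44.3% of all kidney peaks. Within 10 kb there was one for 263 (18.2%), against 18.0%. Shared kidney peaks away from gene ends had 52.6% and 23.7%. Linking the 1442 peaks to each other at 10 kb or less gave 61 runs with 126 peaks (8.74%), of which 57 were pairs and 4 triplets; none was longer. The triplet of the highest summed score lay inside Hmcn2 with scores of 117, 27 and 21 over 5.24 kb. Another lay beside Slc25a36 with 26, 87 and 34 over 13.0 kb. The triplet at Cyfip2, a subunit of the actin-regulating WAVE complex, was weak throughout, with 16, 17 and 16.

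By nearest protein-coding gene within 50 kb, 1306 of the 1442 peaks were assigned to 1125 genes. Of these, 976 had 1 such peak, 126 had 2 and 23 had 3 or more. For 843 genes (74.9%) these were their only kidney peaks, and 628 (55.8%) had no liver or heart peak assigned to them. A shared kidney peak was also present at 220 genes (19.6%). The peaks were selected for having no overlapping liver or heart peak, and the same shares were not counted for other classes. Over all protein-coding genes, 34.0% had a liver peak and 22.7% a heart peak inside or within 50 kb, nearest gene or not. The 1125 genes were long, with a median of 56.1 kb against 17.2 kb for all protein-coding genes and 146 kb for those with 3 or more peaks. Length therefore moved with the number of peaks, and its part in it was not tested.

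Tns1, which encodes the focal adhesion protein tensin 1, had the most, with 8 peaks scoring 16 to 40, of which 7 lay inside the 214 kb gene. It had 12 kidney peaks in all, 5 liver and 3 heart peaks. Osbpl3, an oxysterol-binding protein gene of 163 kb, had 5 peaks scoring 17 to 31 and no other kidney peak, beside 1 liver and 2 heart peaks. Hmcn2 and Cyfip2 had 4 each, beside 2 liver peaks at Hmcn2, 1 at Cyfip2 and no heart peak at either. Slc25a36 had 3, none inside the gene, and no liver or heart peak at all. Further genes with 3, by summed score, were Tns3, a relative of Tns1 (15 to 58), the zinc finger gene Casz1 (20 to 54), Syne3, a nesprin of the nuclear envelope (23 to 57), Ptma (21 to 55) and Bahcc1 (20 to 48). Tns3 also had 2 liver peaks and 1 heart peak, Casz1 3 heart peaks and Syne3 3 liver peaks. Ptma had 2 liver and 2 heart peaks and Bahcc1 4 and 2. Ptma stood out by length, at 4.16 kb, with 2 of its kidney peaks shared by all tissues. The peaks farthest from any protein-coding gene were 582 kb from Klf4 (score 21), 574 kb from Actl7b (14) and 530 kb from Tbl1xr1 (19).

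Genes of kidney function were read from lists, with 11.8% of all 21887 protein-coding genes having a kidney-only peak away from gene ends inside them or within 50 kb. Among 20 transcription factors of the kidney lineage, 8 had such a peak (40.0%), against 5 for liver-only peaks away from gene ends (all genes 17.1%) and 1 for heart-only peaks (all genes 9.01%). The listed genes are longer than the average gene, with a median of 26.5 kb against 17.2 kb. Pax2 (18) and Pax8 (14), paired-box factors of nephron formation, had 1 peak each inside the gene. Tfcp2l1, a factor of the distal nephron and collecting duct, had 1 scoring 31 at 14.05 kb. Foxi1, the factor that specifies intercalated cells, had 1 scoring 20 at 48.9 kb. Esrrg, the nuclear receptor ERR gamma, had 1 scoring 22 inside it and Mecom, a zinc finger factor, 1 scoring 28; these genes are 606 and 558 kb long. For Pax8, Foxi1, Esrrg and Mecom, no liver or heart peak lay inside or within 50 kb. The other 12 factors, Hnf4a, Lhx1 and Wt1 among them, had no such peak.

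Among 30 genes of salt, water and acid-base handling, 11 had such a peak (36.7%). The counts were 8 for liver-only (26.7%, all genes 17.1%) and 7 for heart-only peaks (23.3%, all genes 9.01%). These genes too are longer than the average gene, with a median of 31.8 kb against 17.2 kb, and the part of length was not tested. Slc9a3, the sodium/proton exchanger NHE3 that reabsorbs sodium in the proximal tubule, held a pair inside the gene scoring 27 and 56 (chr13:74143368-74143555 and chr13:74144074-74144261). No liver or heart peak lay within 50 kb of Slc9a3. Atp1b1, the beta subunit of the sodium pump, had peaks scoring 53 and 25 at 2.74 and 13.5 kb. Aquaporin genes followed, with Aqp1 at 14 inside the gene and Aqp3 at 46 and 17; the Aqp3 peaks lay 35.8 and 49.7 kb away and were nearer to Aqp7. The carbonic anhydrase genes Car12 (21) and Car4 (19) had 1 peak each. Nr3c2, the mineralocorticoid receptor, had 1 scoring 31, and Klhl3, an adaptor that targets WNK kinases for degradation, 1 scoring 19. Oxsr1, a kinase acting below the WNK kinases, had peaks scoring 22 and 16, both nearer to other genes. Inside or within 50 kb, Atp1b1 also had 4 liver peaks, Nr3c2 2 liver and 2 heart peaks and Oxsr1 2 liver peaks. Klhl3 and Car12 had 1 liver and 1 heart peak each and Aqp3 1 heart peak, whereas Aqp1 and Car4 had neither. No peak of the class lay within 50 kb of the genes of the epithelial sodium channel (Scnn1a, Scnn1b, Scnn1g), of Wnk1, Wnk4 or Sgk1.

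Over all protein-coding genes, 11.8% had a kidney-only, 17.1% a liver-only and 9.01% a heart-only peak away from gene ends inside or within 50 kb. Among 20 solute carriers of the proximal tubule, 5 had a kidney-only one (25%), the same count as for liver-only and for heart-only peaks. They were Slc6a19, the neutral amino acid carrier (43, at 19.6 kb and nearer to Slc12a7), Abcc4 (33, with the E-box sequence printed earlier), Slc22a12, the urate exchanger (20, inside), Slc13a3, a dicarboxylate carrier (15, inside), and Slc5a1, a sodium-glucose carrier (14, at 48.0 kb). For Slc5a2, Slc2a2 and Slc34a1, which carry the bulk of filtered glucose and phosphate, there was none. The median length of the 20 carrier genes was 25.7 kb, against 17.2 kb for all protein-coding genes.

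Of 20 clock genes and outputs, 5 had a kidney-only peak away from gene ends (25%, all genes 11.8%). The counts were 8 for liver-only (40%, all genes 17.1%) and 6 for heart-only peaks (30%, all genes 9.01%). By contrast, 18 of the 20 had a kidney peak of some kind within 50 kb, as did 33.1% of all protein-coding genes. The peak inside Thra, the thyroid hormone receptor alpha gene that adjoins Nr1d1, scored 70 and lay 17.4 kb from Nr1d1 (chr11:98750469-98750656). Per2 had 1 scoring 17 inside the gene, and Arntl, which encodes BMAL1 itself, 1 scoring 24 inside the gene (chr7:113285041-113285228). Tef, a PAR bZIP output factor, had peaks scoring 40 and 26, and Ciart, a repressor of the clock, 1 scoring 39; all 3 lay nearer to other genes. Inside or within 50 kb, Nr1d1 also had 4 liver and 5 heart peaks, Per2 4 and 2, Tef 5 and 4 and Ciart 3 and 1. Arntl had no liver peak and 1 heart peak. For Per1, Per3, Cry1, Cry2, Dbp and Nr1d2 there was no kidney-only peak away from gene ends. The median length of the 20 clock genes and outputs was 28.0 kb, against 17.2 kb for all protein-coding genes.

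**Figure D5:**
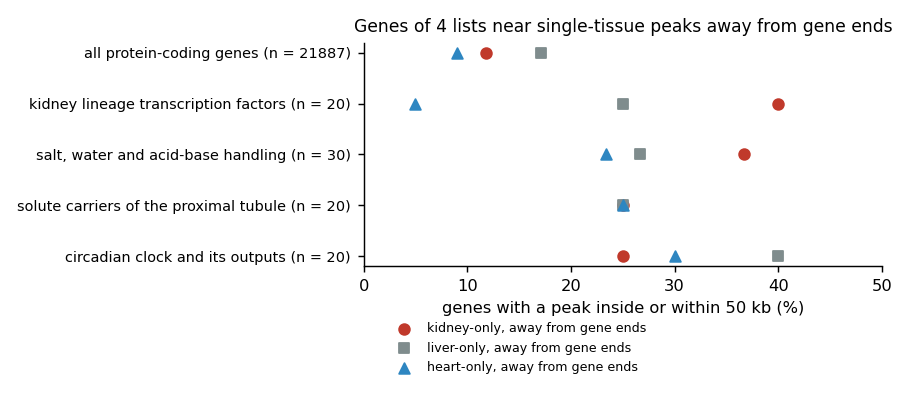
Share of genes (%, x axis) with a peak inside or within 50 kb, for kidney-only (red circles), liver-only (grey squares) and heart-only peaks (blue triangles) away from gene ends, over all protein-coding genes and 4 gene lists (n genes in brackets). The red circle lies at 11.8% for all genes, 40.0% for kidney lineage factors and 36.7% for salt, water and acid-base genes. The 3 markers coincide at 25% for the carriers but lie apart for all genes (grey square 17.1%, blue triangle 9.01%).

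Markers of each nephron segment were counted in the same way, beside 11.8% of all protein-coding genes. Such a peak was near 1 of 6 podocyte markers (Ptpro, 27 at 44.9 kb and nearer to Rerg). It was near 1 of 6 of the proximal tubule (Slc13a3, 15, inside). For the thick ascending limb it was near 1 of 5 (Umod, 15 at 32.0 kb and nearer to Pdilt). For the distal convoluted tubule it was 1 of 5 (Klhl3, 19, inside). For principal cells it was 1 of 5 (Aqp3, 46 and 17 at 35.8 and 49.7 kb). For intercalated cells 2 of 5 markers had one, Slc4a1 (16 at 4.20 kb) and Foxi1 (20 at 48.9 kb). Inside or within 50 kb, Slc4a1 also had 3 liver peaks, and Foxi1 had no liver or heart peak. Of the other cell types, 0 of 6 hepatocyte, 0 of 6 cardiomyocyte and 0 of 6 endothelial markers had one. Among leukocyte markers 1 of 6 did (Lyz2, 25 at 47.5 kb). Kidney-only peaks at gene ends (12.2% of all genes) were, however, near 4 of the 6 cardiomyocyte markers. Those peaks were near 0 of 6 hepatocyte, 0 of 6 endothelial and 1 of 6 leukocyte markers. Liver-only peaks away from gene ends (17.1% of all genes) were near 4 of the 6 hepatocyte markers. They were also near 2 of 6 podocyte, 2 of 6 proximal tubule, 2 of 5 thick ascending limb and 2 of 5 distal convoluted tubule markers, and 0 of 5 of principal and 0 of 5 of intercalated cells. Heart-only peaks away from gene ends (9.01% of all genes) were near 1 of 6 cardiomyocyte and 1 of 6 hepatocyte markers. They were also near 1 of 6 endothelial, 1 of 6 podocyte and 1 of 6 proximal tubule markers. In lists of 5 or 6 genes, counts of 0, 1 or 2 are too few to set apart from the share over all genes. With a reach of 10 kb, the kidney-only counts were 0 for podocyte, thick ascending limb, principal cell and leukocyte markers. They were 1 each for proximal tubule, distal convoluted tubule and intercalated markers, beside 5.46% of all genes. Foxi1, Klhl3, Aqp3 and Slc13a3 stand in more than 1 list. In whole tissue, binding in few cells and weak binding in many cannot be told apart.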

How the data were processed

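BMAL1 ChIP-seq and input libraries came from 3 mice per tissue. Replicates were pooled by the authors: per the labels, each deposited peak list rests on the 3 ChIP and 3 input libraries of its tissue. The submitters' processing notes name mm10, Bowtie2, SAMtools and HOMER; which tool did which step, and with what settings, is not stated there. The lists hold positions and the authors' deposited score, a whole number of unknown scale.

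The 3 lists were compared with Python 3.11.15, pandas 2.3.3, numpy 2.4.6 and scipy 1.17.1. Peaks counted as shared from 1 bp of overlap. Genes came from RefSeq GRCm38.p6 (49943 genes on chromosomes, 21887 protein-coding). With the lists in place 44.9% of kidney peaks lay at gene ends, against 9.72 to 12.1% after shifts of 10 or 100 kb, which places lists and table on the same build. Overlap, distance and strand routines were tested on simulated data. Strand and sequence came from a RefSeq table of 32851 start windows without chromosome 18. Motif counts in whole peaks and in flanking windows were planned and not made, as no genome was used here; E-boxes were counted in start windows on both strands.

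Named genes are the nearest protein-coding genes of the 20 highest-scoring peaks, the 10 genes with most peaks, list genes with a peak within 50 kb, and those at the limits, the farthest peaks and the densest runs. Foxo3, Elovl1, Alas1, Ccnd1 and Dgat2 beside shared peaks, and the genes whose sequences are printed, were chosen after their values were seen. A few genes and a motif that the rule and the lists select are not reported here. The peaks and the gene lists were chosen with earlier results of these data known. Alternatives are given in the closing section.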

Additional observations from a re-analysis of the deposited data

How the results depend on the processing

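Of 37 recalculations, 22 stayed within the tolerance and 15 moved past it; the tolerance was the reported 95% interval for shares and 1.5 times for counts and medians, so a share with a wide interval, as of E-boxes, can shift more. Requiring that no liver or heart peak centre lie within 1000 bp lowered the share with such a peak within 10 kb to 15.7%. A limit of 5 kb from gene ends left 934 peaks, with a median distance of 15.2 kb and 15.7% near a liver or heart peak. Ends of protein-coding genes alone gave a median distance of 15.3 kb. The upper 50% of each list gave 487 peaks, a median score of 36, 32.6% with another kidney peak within 50 kb and 11.7% with a liver or heart peak within 10 kb. With a reach of 10 kb, the genes with a peak were 4 kidney lineage factors, 7 of salt, water and acid-base handling, 3 carriers and 2 clock genes; by nearest gene alone, 3 carriers and 2 clock genes. Over all protein-coding genes the share was 5.46% at 10 kb and 5.14% by nearest gene, against 11.8% as reported. Fewer peaks or a shorter reach are part of each construction. The share inside a gene stayed between 73.1 and 74.5% under all 4 changes of the definition. The E-box share ranged from 22.7 to 36.4%, within the reported interval. No paired analysis was possible because each list pools its replicates, and leaving out a replicate could not be run for the same reason. Depth is unknown, so the weakest peaks of a list cannot be told from differences in sensitivity between lists.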

Other observations

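On chromosome X, 6 of the 42 kidney peaks were kidney-only peaks away from gene ends (14.3%), against 30.4 to 44.1% of the kidney peaks on the single autosomes. By another measure, chromosome X held 1.04% of all kidney peaks and 0.42% of the kidney-only peaks away from gene ends. It held 0.28% of the liver-only and 0.35% of the heart-only peaks away from gene ends. The share of all liver or heart peaks on it was not counted. Mir22 was the microRNA gene nearest to any of these peaks: a peak scoring 24 lay 1.09 kb from it, with Tlcd2 as the nearest protein-coding gene.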
